A study of Homo sapiens with 6 samples.

Results

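The mitochondrial carrier, protein import and mitochondrial ribosome genes of Hs578T cells were compared between cells given a small interfering RNA against CSRP2 (siCSRP2) and cells given a non-targeting RNA (siControl). Members were the protein-coding genes whose symbol in the array's annotation starts with SLC25A, TIMM, TOMM, MRPL or MRPS and a number, without antisense genes and pseudogenes. This gave 98 of the 14884 genes measured: 2 SLC25 carriers, 23 import genes (TIMM and TOMM) and 73 mitoribosome genes (MRPL and MRPS). RefSeq lists 48 protein-coding genes of the carrier family, 25 of the import families and 77 of the mitoribosome families under such symbols, so the import and ribosome families were nearly complete, whereas the carriers were represented by 2 genes and no statement on the family as a whole can be made.

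Hs578T is a human breast cancer cell line with mesenchymal traits. Each group held 3 arrays, numbered 1 to 3, of total RNA from cells grown in serum and insulin and transfected with a lipid reagent. All cells of both groups were transfected, and the labels name neither the siRNA sequences nor whether the replicates were separate cultures, so p-values here reflect array-to-array spread, part or all of which could be technical. The 5 measured mesenchymal markers (VIM, AXL, CD44, FN1, ZEB1) had mean log2 values of 4.68 to 10.8, against a median of 2.99 over all genes, and PECAM1, an endothelial marker, had 2.53. VIM, AXL and FN1 themselves fell in siCSRP2, by 0.82, 1.73 and 0.59 on the log2 scale (limma adjusted p = 0.0149, 0.00833 and 0.0299), and their part in the results was not tested. Of 5 measured markers that such a line should lack, ESR1, PGR and ERBB3 lay below that median (2.49 to 2.67), whereas EPCAM (3.28) and GATA3 (3.74) lay above it. CSRP2 itself measured 3.25 to 4.26 on siCSRP2 arrays and 3.69 to 4.35 on siControl arrays. Its log2 difference of -0.26 (SE 0.26) missed the threshold (limma adjusted p = 0.583, exact permutation, two-sided p = 0.5, smallest possible 0.1), so the target does not check the labels. Across genes, siControl 3 had a mean r of 0.966 to the siCSRP2 group and 0.967 to its own group, whereas siControl 1 and siControl 2 had 0.933 and 0.936 to the siCSRP2 group. Counts are therefore also given without siControl 3. As that array was picked for its likeness to the siCSRP2 arrays, leaving it out tends to widen the differences. Falls over all genes went from 974 to 2193, so calls gained that way are not separate support.

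Nearly all mitochondrial proteins are encoded in the nucleus, made in the cytosol and imported. The TOM complex of the outer membrane recognises precursors through receptor subunits and passes them through a channel, and the TIM23 and TIM22 complexes of the inner membrane take up precursors with a cleavable leader and carrier proteins, with small TIM chaperones between the membranes. The mitochondrial ribosome is built of imported proteins, named MRPL after the large and MRPS after the small subunit, on RNA from mitochondrial DNA. It makes membrane subunits of the respiratory chain. SLC25 carriers move metabolites and nucleotides across the inner membrane.

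Values below are log2 expression values of 1 probe set per gene, differences are siCSRP2 minus siControl, and a gene is said to fall or rise only where limma's adjusted p over all genes was under 0.05. Of the 98 members 7 fell and none rose: the import receptors TOMM20 and TOMM70 and the ribosomal genes MRPL15, MRPL35, MRPL10, MRPL11 and MRPS34. Over all genes 6.54% fell and 0.8% rose, and among the 7442 genes with a mean above the median of all genes (called the brighter genes below), which hold 89 of the 98 members, 12.7% fell. The members' share of 7.14% lies just above that of all genes and below that of the brighter genes. When the replicate number was entered as a block, 28 members fell (28.6%) and none rose, beside 13.1% of all genes and 25.1% of the brighter genes lower. That block rests on a pairing read from the same data and not from the labels, and its p-values leave that choice out. At an unadjusted p under 0.05, 31 members (31.6%) were lower and 1 was higher, beside 17.4% of all genes and 31.7% of the brighter genes lower and 6.32% of all genes higher. The plot of ranked differences shows how the families were spread around these few genes.

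**Figure D1:**
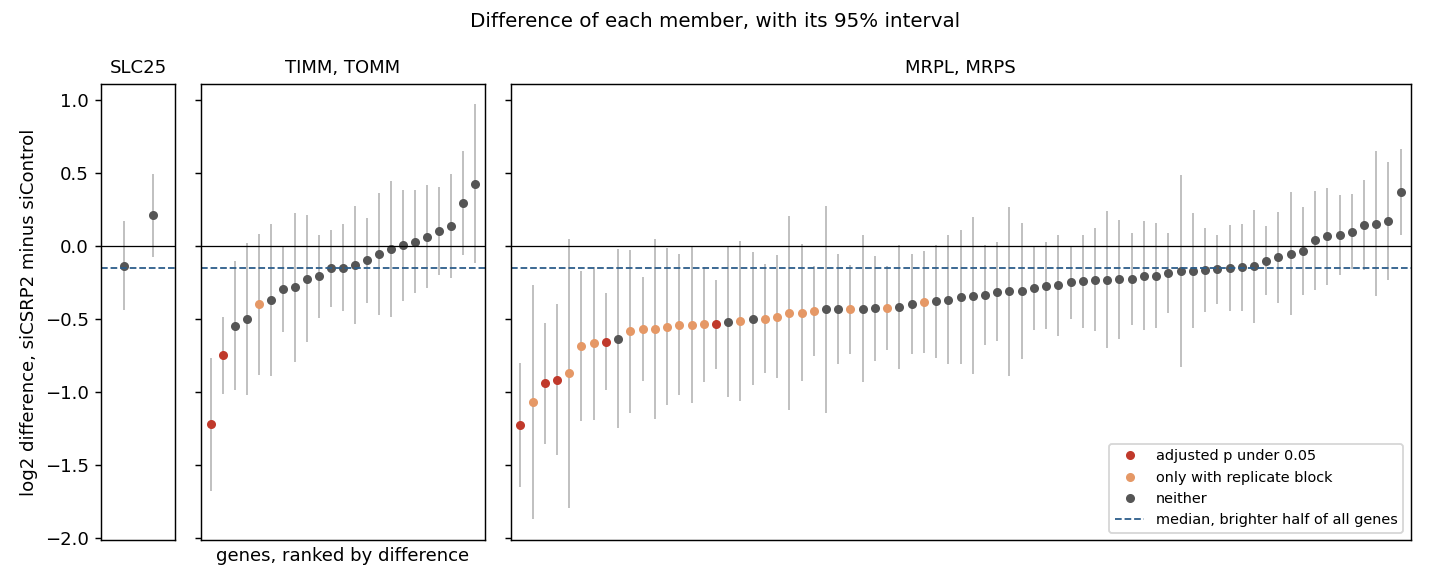
Log2 difference (siCSRP2 minus siControl, vertical axis) of each of the 98 members, ranked within its family along the horizontal axis, with the 95% interval of the fit as a vertical line. Red points are the 7 members that fell, orange points passed only when the replicate number was a block, and the dashed line is the median of the brighter genes (-0.15). 65 of 73 mitoribosome genes and 16 of 23 import genes lie below 0.

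Both called import genes are TOM receptors. TOMM70, which receives carrier and other multi-spanning precursors together with cytosolic chaperones, measured 4.60, 4.16 and 4.21 on siCSRP2 arrays 1 to 3 and 5.84, 5.68 and 5.12 on siControl arrays 1 to 3. Every siCSRP2 value lay below every siControl value, with the smallest gap to siControl 3. The group means were 4.32 ± 0.24 in siCSRP2 and 5.55 ± 0.38 in siControl (SD, n = 3), and the difference of -1.22 (SE 0.20, 2.33-fold) had an adjusted p of 0.0134 in limma. TOMM20, which binds the leader sequence of precursors, measured 4.55, 4.62 and 4.36 on siCSRP2 arrays and 5.27, 5.35 and 5.17 on siControl arrays. These groups were apart by more than their own ranges, and siControl 3 lay close to the other controls. The TOMM20 difference was -0.75 (SE 0.12, 1.68-fold, limma adjusted p = 0.0111). As total RNA of whole cultures was measured, fewer cells of a kind and less RNA per cell cannot be told apart.

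The 2 receptor genes are shown with the 250 bases before their RefSeq start, because members that fell were searched for motifs of factors known to act on nuclear genes for mitochondria. Capitals mark matches, on either strand, to the motif of the ETS factors (CCGGAAG) or to that of nuclear respiratory factor 1 (NRF1), GCGCANGCG. TOMM20 lies on the minus strand (upstream window chr1:235128838-235129087, GRCh38.p14) and has an NRF1 match that starts 101 bases and an ETS match that starts 22 bases before the gene. TOMM70 is also on the minus strand (chr3:100401090-100401339, GRCh38.p14), with ETS matches that start 104 and 19 bases before the gene. Both promoters thus hold an ETS match in their last 22 bases.
TOMM20: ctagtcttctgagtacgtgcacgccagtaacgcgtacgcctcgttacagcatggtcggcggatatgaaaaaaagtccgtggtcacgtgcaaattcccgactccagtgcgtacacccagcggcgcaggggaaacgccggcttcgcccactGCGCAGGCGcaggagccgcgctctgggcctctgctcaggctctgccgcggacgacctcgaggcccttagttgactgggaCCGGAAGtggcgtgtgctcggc
TOMM70: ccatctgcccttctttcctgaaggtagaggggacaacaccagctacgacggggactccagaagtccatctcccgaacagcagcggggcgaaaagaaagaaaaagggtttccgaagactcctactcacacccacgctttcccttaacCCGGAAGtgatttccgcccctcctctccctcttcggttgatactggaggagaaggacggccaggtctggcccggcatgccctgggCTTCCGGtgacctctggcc

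The other subunits of the TOM complex did not pass the test. TOMM22, the central receptor, measured 4.45, 4.47 and 4.43 on siCSRP2 arrays and 5.04, 4.75 and 4.22 on siControl arrays. The siCSRP2 values were nearly equal and lay inside the spread of the controls, with siControl 3 below all of them (difference -0.22, SE 0.19, limma adjusted p = 0.517). Without siControl 3 the TOMM22 difference was -0.45 with an adjusted p of 0.0456. The channel-forming TOMM40 measured 5.69 ± 0.32 in siCSRP2 and 6.06 ± 0.42 in siControl (SD, n = 3; difference -0.37, limma adjusted p = 0.366), and its dimmer second probe set differed by -0.44. The small subunits TOMM5, TOMM6 and TOMM7, which help to assemble and steady the complex, differed by 0.03, 0.00 and -0.10, with 95% intervals within -0.39 to 0.38. The cytosolic co-chaperone TOMM34 differed by -0.06, and the paralogues TOMM20L and TOMM40L, at mean values of 2.49 and 2.69 over the 6 arrays, lay below the median of all genes.

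Within each array, the TOMM70 value was set against that of TOMM22 to test whether the receptors changed unequally. The difference between TOMM70 and TOMM22 was lower by 1.00 on the log2 scale on siCSRP2 than on siControl arrays, with no overlap (exact permutation, two-sided p = 0.1, the smallest that 3 against 3 arrays can give). The corresponding value for TOMM20 and TOMM22 was lower by 0.53 on siCSRP2 arrays, also without overlap and with the same exact permutation p of 0.1. It was 0.10, 0.15 and -0.06 on siCSRP2 arrays 1 to 3 and 0.23, 0.59 and 0.95 on siControl arrays 1 to 3. The gap between these groups was narrow, and the highest value came from siControl 3, the array with the lowest TOMM22. Both comparisons were chosen after the values were seen, and the design cannot take either below the usual threshold.

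**Figure D2:**
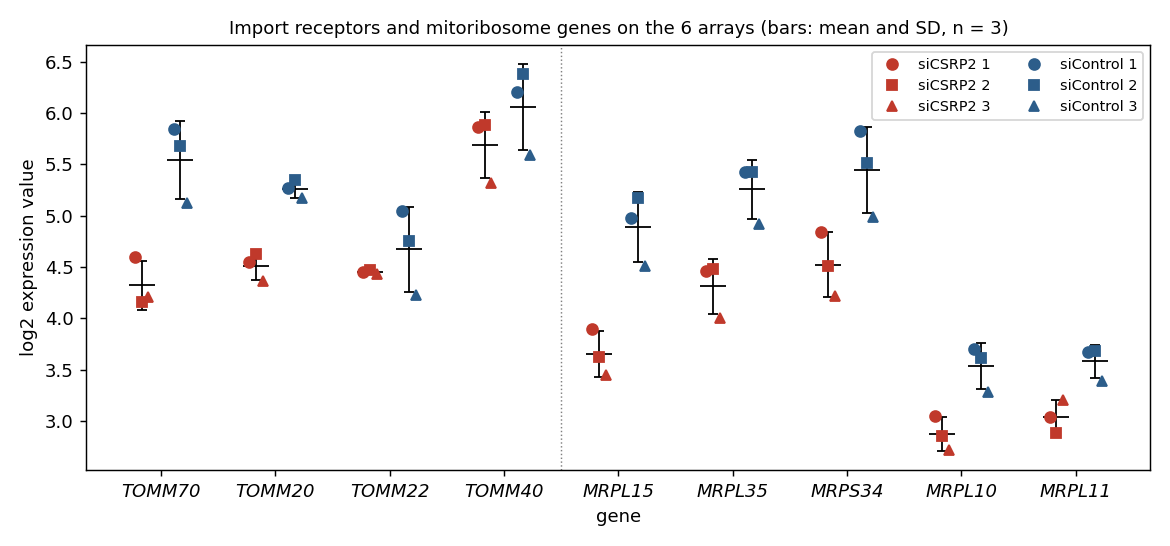
Log2 expression (vertical axis) of 4 TOM subunits and the 5 mitoribosome genes that fell, with siCSRP2 arrays in red left of siControl arrays in blue, symbols for the replicate number, and black bars for the mean and SD of 3 arrays. TOMM70, TOMM20 and the 5 ribosomal genes have no overlap between the groups, TOMM22 and TOMM40 do, and siControl 3 is the lowest control for all 9 genes.

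At the inner membrane none of 13 TIMM genes passed the test (limma). At an unadjusted limma p under 0.05, 2 were lower and none was higher. Beside them, 17.4% of all genes and 31.7% of the brighter genes were lower and 6.32% of all genes higher. TIMM23, the channel of the leader-sequence translocase and one of the brightest members, measured 6.46, 6.14 and 6.25 on siCSRP2 arrays and 6.34, 6.41 and 5.92 on siControl arrays. These ranges overlapped nearly fully, and the 95% interval of the difference ran from -0.29 to 0.42. Its partners TIMM17A and TIMM17B differed by -0.15 and -0.30, TIMM50, the receptor of the same translocase, by -0.50 (SE 0.23, adjusted p = 0.228), and TIMM21, which contacts the TOM complex, by -0.28. TIMM44, the anchor for the import motor, had the largest positive difference of the import genes: 4.61, 5.30 and 5.71 on siCSRP2 arrays against 4.72, 4.82 and 4.80 on siControl arrays. Its controls were tight, and siCSRP2 1 lay below them while siCSRP2 2 and siCSRP2 3 lay above. The TIMM44 difference of 0.43 (limma adjusted p = 0.321) was 0.72 without siCSRP2 1 (adjusted p = 0.0391), so 1 array decides that value. In that fit 0.941% of all genes rose.

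For carrier precursors, TIMM22, the channel of the carrier translocase, differed by -0.02 between groups whose values ran from 5.79 to 6.25 on siCSRP2 and 5.64 to 6.32 on siControl arrays. The small chaperones that guide those precursors differed by -0.55 (TIMM13), -0.40 (TIMM10), -0.15 (TIMM9), -0.13 (TIMM8B), 0.14 (TIMM8A) and 0.29 (TIMM10B). TIMM13 measured 5.46, 5.06 and 5.33 on siCSRP2 arrays and 5.91, 6.16 and 5.42 on siControl arrays. Only siControl 3 reached into the siCSRP2 range there (limma adjusted p = 0.126). When the replicate number was a block TIMM10 fell (adjusted p = 0.0491) and TIMM13 did not (0.0826), and without siControl 3 TIMM13, TIMM10, TIMM50 and TOMM22 joined the receptors, for 6 falls among the 23 import genes (26.1%), beside 14.7% of all genes and 27.4% of the brighter genes in that fit.

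The import genes had a median difference of -0.15, the same as the brighter genes (-0.15) and lower than all genes (0.02). The 2 falls (8.7% of 23) became 3 with the block, 13.0% beside 13.1% of all genes and 25.1% of the brighter genes under that fit. No import gene rose with the block, where 2.67% of all genes did. The groups did not overlap for 3 import genes, all lower in siCSRP2 (TOMM20, TOMM70 and TIMM17B), beside 16.2% of all genes lower and 11.5% higher. The family median was -0.05 after quantile normalization or cyclic loess, -0.23 after median centring, -0.18 with array weights, -0.07 without siControl 1 and -0.26 without siControl 3. In those settings the median of all genes ran from -0.07 to 0.03.

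In the mitoribosome 4 of 48 MRPL genes (8.33%) and 1 of 25 MRPS genes (4%) fell. These shares lie on either side of the 6.54% of all genes and below the 12.7% of the brighter genes. Genes were grouped by symbol alone, and the subunit that holds each protein was not checked. MRPL15, a large-subunit protein, measured 3.89, 3.63 and 3.45 on siCSRP2 arrays and 4.98, 5.17 and 4.51 on siControl arrays. All siCSRP2 values were below all controls, and the difference of -1.23 (SE 0.19, 2.35-fold, limma adjusted p = 0.0107) was the largest fall of the 98 members. MRPL35 measured 4.46, 4.48 and 4.005 on siCSRP2 arrays and 5.42, 5.42 and 4.92 on siControl arrays. Array 3 was the lowest in both groups, and the difference was -0.94 (SE 0.18, 1.92-fold, limma adjusted p = 0.0222).

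MRPL10 and MRPL11 have bacterial counterparts at the stalk base, the part of the large subunit that engages the translation factors. MRPL10 measured 3.05, 2.86 and 2.72 on siCSRP2 arrays and 3.71, 3.62 and 3.28 on siControl arrays (difference -0.66, SE 0.15, limma adjusted p = 0.0338). MRPL11 measured 3.04, 2.88 and 3.21 on siCSRP2 arrays and 3.67, 3.68 and 3.39 on siControl arrays (difference -0.54, SE 0.13, limma adjusted p = 0.0461). Both were dim, between 2.72 and 3.71 on every array. MRPL11 passed in only 1 of the 6 fits that left out an array, and its adjusted p was 0.0546 after quantile normalization and 0.0594 after cyclic loess.

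MRPS34, a small-subunit protein, measured 4.84, 4.51 and 4.22 on siCSRP2 arrays and 5.82, 5.51 and 4.99 on siControl arrays. All siCSRP2 values were below all controls, though the gap between the groups was small (4.84 on siCSRP2 1 against 4.99 on siControl 3). The difference was -0.92 (SE 0.23, 1.89-fold, limma adjusted p = 0.0464), and the call was lost after quantile normalization (0.0934) and cyclic loess (0.0843).

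Of the 7 members that fell, 4 had a promoter in the RefSeq table, and the 2 ribosomal ones are shown as a contrast in motif content. MRPS34 (minus strand, upstream window chr16:1773135-1773384, GRCh38.p14) has ETS matches that start 71, 29 and 19 bases before the gene, in capitals. MRPL11 (minus strand, chr11:66438849-66439098, GRCh38.p14) has no match to the ETS, NRF1 or YY1 motif in its window.
MRPS34: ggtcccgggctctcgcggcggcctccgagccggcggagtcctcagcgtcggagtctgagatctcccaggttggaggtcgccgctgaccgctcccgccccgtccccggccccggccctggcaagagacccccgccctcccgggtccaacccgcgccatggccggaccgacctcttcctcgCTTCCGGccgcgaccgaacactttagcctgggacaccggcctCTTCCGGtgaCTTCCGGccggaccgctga
MRPL11: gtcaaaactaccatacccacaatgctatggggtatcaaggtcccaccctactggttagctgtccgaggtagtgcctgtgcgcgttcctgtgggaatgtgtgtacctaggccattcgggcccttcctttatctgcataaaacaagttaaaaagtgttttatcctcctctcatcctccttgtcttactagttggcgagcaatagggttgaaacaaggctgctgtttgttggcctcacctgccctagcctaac

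Beyond these 5, most ribosomal genes were lower without passing. The differences of the 73 genes ran from -1.23 (MRPL15) to 0.37 (MRPS15), with a median of -0.35, and 65 of 73 (89.0%) were negative, beside 65.2% of the brighter genes and 46.9% of all genes. The 48 MRPL genes had a median of -0.36 and the 25 MRPS genes a median of -0.35, so both symbol groups had like medians. Of the MRPS genes 24 of 25 were negative, and of the MRPL genes 41 of 48. The groups did not overlap for 18 ribosomal genes that were lower (24.7%), beside 16.2% of all genes and 27.8% of the brighter genes. They also did not overlap for 1 that was higher, beside 11.5% of all genes. The median was -0.25 after quantile normalization or cyclic loess, -0.44 after median centring, -0.50 without siControl 3 and -0.27 without siControl 1. The median of all genes was -0.02, -0.02, -0.07, 0.03 and 0.02 in those settings, and that of the brighter genes was not computed there. Values spread less on siCSRP2 arrays (SD over probe sets 1.29 to 1.32) than on siControl arrays (1.35 to 1.38), and the part of this was not tested.

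MRPS15, the exception among the MRPS genes, measured 6.54, 6.50 and 6.80 on siCSRP2 arrays and 6.40, 6.24 and 6.11 on siControl arrays. Every siCSRP2 value was above every control (difference 0.37, SE 0.13). MRPS15 was the single member higher in siCSRP2 without overlap, beside 11.5% of all genes. It was also the single one higher at an unadjusted limma p under 0.05, beside 6.32% of all genes. MRPS15 did not pass (limma adjusted p = 0.121, and 0.107 with the block). MRPS18A and MRPS18B, paralogues of a bacterial small-subunit protein, differed by -0.35 (adjusted p = 0.335) and -0.46. MRPL54, MRPL52 and MRPS12, the last a protein of the decoding centre, were the dimmest ribosomal genes, with means over the 6 arrays of 2.66, 2.46 and 2.79. Their differences of 0.07, -0.25 and -0.15 are those of probe sets below the median of all genes. The brightest, MRPS21, measured 7.52, 6.89 and 7.17 on siCSRP2 arrays and 7.88, 7.83 and 7.17 on siControl arrays. Its difference of -0.43 (SE 0.22, adjusted p = 0.280) did not pass, and siControl 3 equalled siCSRP2 3 while siControl 1 and siControl 2 lay above all siCSRP2 values.

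Arrays of equal number were also set against each other. Within a number, the median over the 73 genes of siCSRP2 minus siControl was -0.32, -0.45 and -0.24 for numbers 1, 2 and 3, and 63, 67 and 54 of the genes were lower in siCSRP2. For 49 of 73 genes (67.1%) the siCSRP2 value was lower in all 3 pairs, beside 26.6% of all genes and 44% of the brighter genes. Among the import genes, 9 of 23 (39.1%) were lower in all pairs, and the third pair had a positive median (0.07) where the others were at -0.28 and -0.26.

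When the replicate number was a block, 25 of the 73 ribosomal genes fell (34.2%), beside 13.1% of all genes and 25.1% of the brighter genes, and none rose. MRPS28, of the small subunit, measured 4.03, 3.58 and 2.84 on siCSRP2 arrays and 5.16, 4.59 and 3.92 on siControl arrays. Those ranges overlap, but each siCSRP2 value was below the control of the same number by a similar amount (-1.13, -1.01 and -1.07), and the adjusted p was 0.00109 with the block and 0.104 without it. MRPL58, a hydrolase that frees stalled mitoribosomes, measured 4.38, 3.93 and 3.46 on siCSRP2 arrays and 5.29, 5.34 and 3.77 on siControl arrays. Here siControl 3 lay far below the other controls (difference -0.87, SE 0.40, adjusted p = 0.234, and 0.0184 with the block). MRPL3, a conserved large-subunit protein, differed by -0.67 (block adjusted p = 0.00812) and MRPL57 by -0.57 (0.0115), while the other block calls were MRPL1, MRPL4, MRPL9, MRPL16, MRPL17, MRPL28, MRPL30, MRPL37, MRPL39, MRPL40, MRPL47, MRPL48, MRPS10, MRPS14, MRPS16 and MRPS18B, with differences of -0.69 (MRPL40) to -0.38 (MRPL17).

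Array siControl 3 moved with the result in both larger families. Relative to the siControl mean of each gene, the ribosomal median was -0.15, -0.38 and -0.50 on siCSRP2 1, 2 and 3 and 0.17, 0.08 and -0.27 on siControl 1, 2 and 3. The import median was -0.09, -0.17 and -0.24 on siCSRP2 arrays and 0.15, 0.08 and -0.30 on siControl arrays. In the ribosomal median siControl 3 lay within the range of the siCSRP2 arrays and in the import median below it. Array siControl 3 was the lowest of the 3 controls for 85 of 98 members (86.7%), beside 41.2% of all genes and 53.3% of the brighter genes. Its part in the result was not tested. Without siControl 3, 32 ribosomal (43.8%) and 6 import genes fell, beside 14.7% of all genes and 27.4% of the brighter genes. With siControl 1 or siControl 2 left out instead, no ribosomal or import gene passed (limma), and 1% and 0.578% of all genes fell. Leaving out siCSRP2 2 kept TOMM20 alone among the members (1.22% of all genes fell), and leaving out siCSRP2 3 kept TOMM20 and MRPL15 (1.74%). Without siCSRP2 1, 4.95% of all genes fell, and of the members that fell as reported only MRPL11 missed the threshold (limma adjusted p = 0.0855). The number of calls thus moved with the array left out over all genes as well as over the members.

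**Figure D3:**
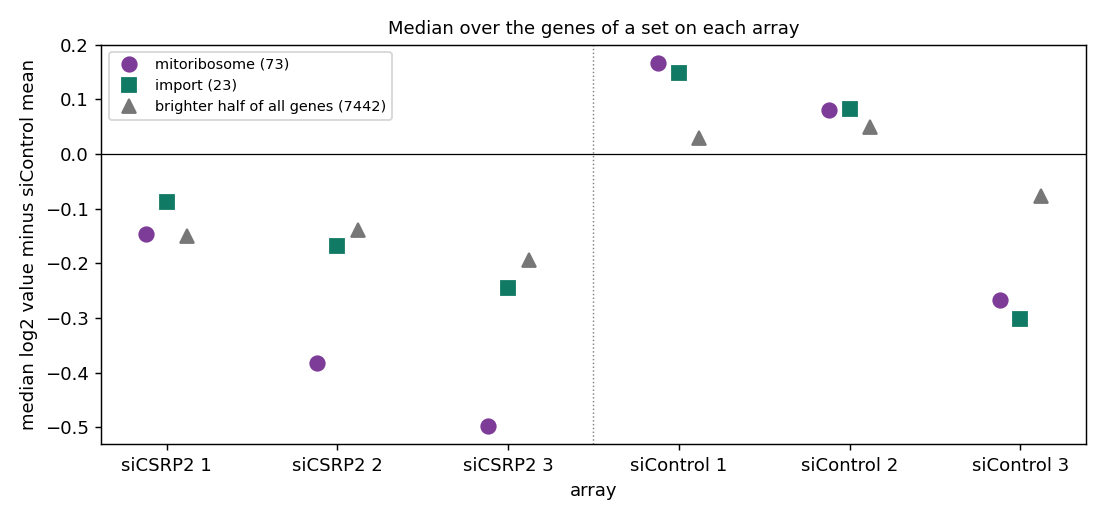
Median over a gene set of the log2 value minus the siControl mean of the gene (vertical axis) on each array (horizontal axis, siCSRP2 left of siControl), for 73 mitoribosome genes (circles), 23 import genes (squares) and the 7442 brighter genes (triangles). On siControl 3 the mitoribosome and import medians are -0.27 and -0.30, within or below the range of the siCSRP2 arrays, while the brighter genes lie at -0.08.

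The 2 carriers were both mitochondrial ornithine carriers of the urea cycle and polyamine routes. SLC25A15 measured 3.01, 2.63 and 2.57 on siCSRP2 arrays and 2.88, 2.89 and 2.85 on siControl arrays (difference -0.13, SE 0.14, limma adjusted p = 0.587). SLC25A2 measured 2.47, 2.49 and 2.26 on siCSRP2 arrays and 2.37, 2.16 and 2.07 on siControl arrays (difference 0.21, SE 0.12, adjusted p = 0.352). The groups overlapped for both genes, and both lay below the median of all genes (2.99). Neither was past an unadjusted p of 0.05. The ADP/ATP, phosphate and iron carriers and the other members of the family are not analysed here.

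Members represented by several probe sets were MRPS2, MRPS16, MRPS18B, MRPL44 and TOMM40. MRPS18B had 7 probe sets with the same values, which were counted once. The brighter and the dimmer probe set of MRPS16 differed by -0.46 and -0.71, in the same direction, while those of MRPS2 (-0.19 and 0.04) and MRPL44 (-0.04 and 0.12) disagreed in sign at sizes within the spread between arrays.

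Genes of the same machineries outside these families were counted from lists. Of 14 measured import genes (of 24 listed), 1 fell and none rose: MTX1, which encodes the outer membrane protein metaxin 1, at 2.61 ± 0.18 in siCSRP2 and 3.47 ± 0.45 in siControl (SD, n = 3; difference -0.85, limma adjusted p = 0.0471). SAMM50, the core of the outer membrane sorting machinery, differed by -0.79 and AGK, a TIM22 subunit, by -0.61, and both fell with the block (adjusted p = 0.00576 and 0.00934). The shares of this list were 7.14% without and 21.4% with the block. They lie below those of the brighter genes (12.7% and 25.1%) and above those of all genes (6.54% and 13.1%). HSPA9, the motor chaperone of the matrix, measured 9.18 in siCSRP2 and 9.10 in siControl, with a 95% interval of the difference from -0.15 to 0.32.

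Of 27 measured genes of mitochondrial translation and ribosome assembly (of 35 listed), 25 were negative (92.6%), beside 46.9% of all genes and 65.2% of the brighter genes. Among them 1 fell (3.7%, beside 6.54% of all genes and 12.7% of the brighter genes) and none rose. The call was ERAL1, a GTPase that chaperones the small-subunit RNA (3.46 in siCSRP2 and 4.51 in siControl, difference -1.05, limma adjusted p = 0.0461). With the block 6 fell (22.2%, beside 13.1% of all genes and 25.1% of the brighter genes). They included the initiation factor MTIF2 (-0.64, 0.00885) and the small-subunit protein CHCHD1 (-0.52, 0.026).

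Among 17 measured transporters and channels outside the SLC25 symbols (of 25 listed), 4 fell and none rose. The serine transporter SFXN1 fell by 0.85 on the log2 scale (limma adjusted p = 0.00992), the porin VDAC3 by 0.99 (0.0173), the calcium uniporter MCU by 0.61 (0.021) and SFXN3 by 1.29 (0.0377). The porins VDAC1 and VDAC2 differed by -0.31 and -0.02. The 4 falls are 23.5% of that list, beside 6.54% of all genes and 12.7% of the brighter genes. SFXN1 passed in 4 of the 6 fits that left out 1 array, MCU in 3, and VDAC3 and SFXN3 in 2.

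Of 17 genes listed for the control of mitochondrial gene expression, 9 were measured. These include transcription factors, the mitochondrial RNA polymerase POLRMT and the mitochondrial DNA helicase TWNK. PPARGC1A, PPARGC1B, PPRC1, GABPA, GABPB1, TFAM, TFB2M and POLG were listed but have no value here, so nothing can be said of them. None of the 9 measured genes passed the test (limma), and their median was 0.10. At an unadjusted limma p under 0.05, 1 gene, MYC, was higher, beside 6.32% of all genes. NRF1 measured 3.58 in siCSRP2 and 3.36 in siControl (difference 0.22, adjusted p = 0.550) and YY1 4.76 in siCSRP2 and 4.52 in siControl (0.24, 0.321). ATF4, the stress-response factor, measured 7.24 in siCSRP2 and 7.13 in siControl (0.10, 0.728), and MYC 5.83 in siCSRP2 and 5.29 in siControl (0.54, 0.147).

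The promoters of the members, which their choice did not use, were searched for motifs. RefSeq gave a window of 250 bases before to 50 after the start for 87 of the 98 members, and each window was read on both strands for the ETS motif CCGGAAG, the NRF1 motif GCGCANGCG and the YY1 motif AANATGGCG. The ETS motif was in 28 of 65 ribosomal (43.1%) and 9 of 21 import promoters (42.9%), beside 15.0% of the promoters of genes tested and 10.7% of all promoters. NRF1 matches were in 18.5% of ribosomal and 28.6% of import promoters, beside 11.3% of genes tested, and YY1 matches in 26.2% and 14.3%, beside 5.13%. Of the 28 members that fell with the block, 24 had a promoter. Among these, 14 of 24 had an ETS match, and among the other members 23 of 63 did. For the NRF1 motif those counts were 5 of 24 and 13 of 63, and for the YY1 motif 6 of 24 and 14 of 63. The split rests on the pairing read from the data, and these contrasts were not tested. In the fit as reported only 4 called members had a promoter, too few to compare. The share over the brighter genes, which hold most members, was not counted. Whether the contrast with genes tested goes with signal level was therefore not tested. A match describes letters in a window and is not a bound site.

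**Figure D4:**
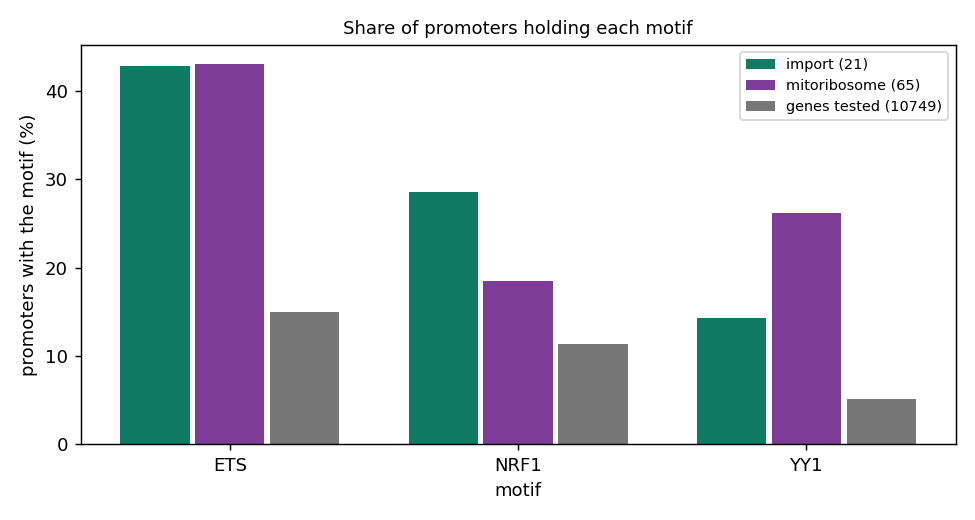
Share of promoters (vertical axis, percent) with at least 1 match to the ETS, NRF1 or YY1 motif (horizontal axis), for 21 import genes, 65 mitoribosome genes and 10749 genes tested. The ETS share is 42.9% and 43.1% in the member families and 15.0% in genes tested. Genes tested include dim genes, and no share was counted for the brighter genes.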

How the data were processed

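Labelled cDNA of 6 samples was hybridised to Affymetrix HuGene 2.0 arrays. The authors deposited 1 log2 value per probe set and array (base 2 inferred from the range of the values). The software was Partek, per the submitters' processing notes. Background correction and normalization: not given in the sources used here. No detection calls were used, and precision is limited by having 6 arrays.

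Of 53617 probe sets, 16098 had 1 gene symbol, none several, and 37519 are unnamed here. Current symbols came from RefSeq (GRCh38.p14), all matched. The probe set with the highest mean stood for a gene (14884 genes), with no filter. Groups were compared across all genes with limma 3.58.1 in R 4.3.3 (group as the only term, Benjamini-Hochberg adjustment over all genes, threshold 0.05, two-sided). The code was tried on simulated data with independent noise per gene and array. The arrays here share spread, so that trial does not give the error rate of these calls. The brighter genes are those whose mean exceeds the median of all genes. Members, lists and naming rule (members past the threshold, also with the block; per family the 4 smallest adjusted p, brightest, dimmest and largest differences; main subunits by role) were chosen with earlier results of these data known. MRPL44, MRPS2, TIMM10B and the genes outside the families were named beyond it.

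Replicate numbers are shared between the groups without a stated link to cultures. Deviations from the group means correlated at 0.30, 0.19 and 0.32 between arrays of equal number, and at -0.26 to 0.05 between others. Equal numbers were therefore treated as pairs, from the data and not from the labels, and the block was run as an alternative. Because the pairing was read from the values that the block then fits, block p-values leave that choice out. Calls made only with the block hold only if the numbers mark real pairs. Leaving out 1 array leaves a group of 2.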

Additional observations from a re-analysis of the deposited data

How the results depend on the processing

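Over all genes 1093 passed as reported, 2348 with the replicate number as a block, 2924 with array weights and 91 to 2620 with 1 array left out. The count of mitoribosome genes that fell, 5 as reported, was 25 with the replicate block, 3 after quantile normalization, 3 after cyclic loess, 8 after median centring, 30 with array weights and 0 to 32 with 1 array left out. The count of import genes that fell, 2 as reported, was 4 with array weights and 0 to 6 with 1 array left out, and 0 to 1 rose in those fits. The causes were not tested. Falls made up 89.1% of calls as reported, 76.0% under quantile normalization, 77.7% under cyclic loess and 94.5% under median centring.

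Of the 7 members that fell, TOMM20 passed in 4 of 6 fits with 1 array left out, MRPL15 in 3, TOMM70, MRPL35, MRPL10 and MRPS34 in 2 and MRPL11 in 1. All 7 kept their direction in every setting run, and MRPL11 also missed the threshold with trend and robust variance (adjusted p = 0.051). Among the 55 named genes refitted singly, those whose direction turned passed in neither fit; the other members were not followed one by one. Under quantile normalization these were MRPL54 (-0.0187), TIMM17A (0.00405), TIMM22 (0.0907), TOMM34 (0.10) and TOMM7 (0.10), and under cyclic loess MRPL54 (-0.0281), TIMM22 (0.10), TOMM34 (0.0833) and TOMM7 (0.058). Under median centring they were MRPL54 (-0.0196), TIMM23 (-0.0219), TOMM5 (-0.0583) and TOMM6 (-0.0829), and under array weights TIMM23 (-0.0701), TIMM8A (-0.0135), TOMM20L (-0.00121), TOMM5 (-0.0465) and TOMM6 (-0.0448). With 1 array left out the ranges were -0.0436 to 0.17 for MRPL54, -0.24 to 0.12 for TIMM22, -0.0871 to 0.16 for TIMM23, -0.31 to 0.00605 for TIMM8B, -0.26 to 0.0487 for TOMM34, -0.14 to 0.16 for TOMM5, -0.0923 to 0.19 for TOMM6 and -0.19 to 0.00451 for TOMM7. The carrier genes are absent from the fit that left out the dimmest 50% of genes. Dim signal limits what the carriers, TOMM20L, TOMM40L, MRPL52, MRPL54 and MRPS12 can show, and array number limits the rest.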
